A study of Mus musculus with 24 samples.

Results

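Cytochrome P450 enzymes of families 1 to 4 are heme proteins that insert oxygen into drugs, fatty acids, steroids, retinoids and vitamin D. They were followed here in visceral fat around the gonads of mice. Genes were taken from the table of raw counts where the symbol was Cyp, a family digit from 1 to 4, subfamily letters and a closing number, and where at least 10 counts were present in 4 or more of the 24 libraries. Of 76 genes with such a symbol among 27179 rows, 31 met the count rule. Family 1 gave 2 of its 3 genes, family 2 gave 18 of 49, family 3 gave 0 of 7 and family 4 gave 11 of 17, and the 31 genes fall in 17 subfamilies. Symbols with a letter after the last number, such as Cyp4a12a, and pseudogenes are outside this pattern.

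RNA of whole fat tissue was sequenced in 6 groups of 4 libraries from females and males aged 27 to 33 weeks. Control mice are labelled Foxp3cre, the first knockout PpargFoxp3cre and the second TbetFoxp3cre, so all 3 genotypes carry Cre under Foxp3. Foxp3 marks regulatory T cells, a small share of the cells of fat. The deleted genes encode PPAR-gamma, a nuclear receptor for fatty acids, and T-bet, a transcription factor of type 1 immunity. The sources used here name neither the mouse strain nor whether each library is 1 animal. Each group has 2 libraries in each of 2 batches, with replicates 1 and 3 in batch 1 and replicates 2 and 4 in batch 2. For control female replicate 1 the title and the source name differ in number and batch, and the title was followed. The Pparg level in whole tissue, 64.8 to 362.2 CPM in controls and 128.6 to 283.6 CPM in PPAR-gamma knockouts, does not check the labels, because adipocytes express Pparg and the deletion is directed at regulatory T cells. Library totals ranged from 8345575 to 31022845 counts. The fat marker Adipoq was present in every library, from 659 to 3985 CPM (counts scaled to library size and composition).

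Most P450 enzymes of these families sit in the endoplasmic reticulum and take electrons from P450 oxidoreductase. Family 1 enzymes are induced through the aryl hydrocarbon receptor, and many family 2 enzymes act on drugs, solvents or arachidonic acid. Family 4 enzymes mainly hydroxylate the end of fatty acid chains and are known as omega-hydroxylases. Liver holds the highest levels of many of these enzymes, while fat uses a narrower set.

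The promoters of 3 genes are shown. Cyp2f2 was the sole family gene called in a knockout. Cyp2c70 kept its sex difference in controls under every alternative tried, and Cyp2d9 was high in males with a marker of ciliated epithelium. Cyp2c70 and Cyp2d9 met the count rule only through libraries where they are high, so their differences are given as a description. Each stretch is the 250 bases before the transcription start in RefSeq on GRCm38.p6, written 5′ to 3′ on the strand of the gene. The Cyp2f2 window lies at chr7:27119705-27119954, plus strand, that of Cyp2c70 at chr19:40187287-40187536, minus strand and that of Cyp2d9 at chr15:82452127-82452376, plus strand. Capitals mark AGGTCA, the core element bound by many nuclear receptors, in Cyp2f2, and TATAAA on either strand, the core of the TATA box, in Cyp2c70 and Cyp2d9.
Cyp2f2 promoter: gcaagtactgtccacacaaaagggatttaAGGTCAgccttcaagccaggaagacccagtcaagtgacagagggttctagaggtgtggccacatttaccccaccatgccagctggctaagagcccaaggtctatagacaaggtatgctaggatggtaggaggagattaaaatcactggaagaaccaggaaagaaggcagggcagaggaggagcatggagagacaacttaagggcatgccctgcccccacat
Cyp2c70 promoter: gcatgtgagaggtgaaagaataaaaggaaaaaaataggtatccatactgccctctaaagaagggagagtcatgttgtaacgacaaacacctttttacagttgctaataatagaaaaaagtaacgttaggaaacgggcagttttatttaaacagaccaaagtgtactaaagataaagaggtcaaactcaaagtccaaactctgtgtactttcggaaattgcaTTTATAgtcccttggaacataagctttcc
Cyp2d9 promoter: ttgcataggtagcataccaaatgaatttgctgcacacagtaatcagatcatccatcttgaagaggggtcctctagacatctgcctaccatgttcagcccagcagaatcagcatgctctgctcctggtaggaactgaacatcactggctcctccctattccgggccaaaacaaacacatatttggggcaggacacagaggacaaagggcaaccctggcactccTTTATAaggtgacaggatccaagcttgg

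The promoter table matched 27 of the 31 genes. On either strand, AGGTCA was in 4 of the 27 (Cyp2b23, Cyp2f2, Cyp2t4 and Cyp2c70) and in 14.024% of all 32851 windows of that length. TATAAA was in 6 of the 27 (Cyp1a1, Cyp2c70, Cyp2d9, Cyp2d26, Cyp2e1 and Cyp4a32) and in 12.368% of all windows. The core of the aryl hydrocarbon receptor element, GCGTG, was in 10 of the 27 and in 28.157% of all windows. A direct repeat of the AGGTCA element with 1 or 4 bases between the copies was found in 0 of the 27. Such repeats are rare, in 0.033% of all windows with 1 base between and 0.015% with 4 bases. Nothing is read from the 0. These counts describe letters in the windows, not bound sites.

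Levels per gene length came from the authors' log2 FPKM (fragment levels scaled to transcript length and library depth), which list 27 of the 31 genes. Cyp2e1, which oxidises ethanol and acetone, stood far above the others with a mean log2 FPKM of 9.58 over 24 libraries and a range from 7.34 to 10.9. Next came Cyp4b1, which hydroxylates fatty acids and small xenobiotics, at 5.55, then Cyp4v3, a fatty acid omega-hydroxylase, at 5.18, and Cyp2d22 at 5.07. The ranges of these 3 genes overlap widely, from 4.18 to 6.98, from 3.36 to 5.85 and from 4.50 to 5.59 log2 FPKM, so their order is not fixed by these libraries. Cyp4f13 (4.39), Cyp4f17 (4.02), Cyp2j6 (3.43), Cyp4f16 (3.34), Cyp2f2 (3.17) and Cyp2j9 (3.05) followed on the same log2 FPKM scale. Cyp2f2 ranged from -1.25 to 7.50 log2 FPKM.

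Below these were Cyp1b1, an estrogen and retinoid hydroxylase, with a mean log2 FPKM of 2.68, and Cyp2s1, an enzyme of epithelial tissues, with 2.39. Cyp4f18, the leukotriene B4 hydroxylase of neutrophils, had 1.90 and Cyp2r1, the vitamin D 25-hydroxylase, 0.555. The remaining 13 genes of the FPKM tables had mean log2 FPKM from 0.240 for Cyp2u1 to -4.52 for Cyp2j13. Cyp2b23, Cyp2c70, Cyp2j11 and Cyp4f14 are not in the FPKM tables. In the count table, 16 of the 31 genes had at least 10 counts in all 24 libraries. Just inside the rule were Cyp2j11 with 5 such libraries and Cyp2c70 and Cyp2d9 with 7, and just outside were Cyp2d10 and Cyp4f40 with 3.

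The 45 genes outside the rule include 11 with 0 counts in all libraries, 17 with counts but under 10 in each library, and 17 with at least 10 counts in 1 to 3 libraries. Family 3, the main drug-metabolising family of liver, was among them entirely: 5 of its 7 genes had 0 counts. Cyp2a5, a coumarin and nicotine oxidase, had 355 counts in all, and its highest level was 19.96 CPM in control female replicate 1.

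**Figure D1:**
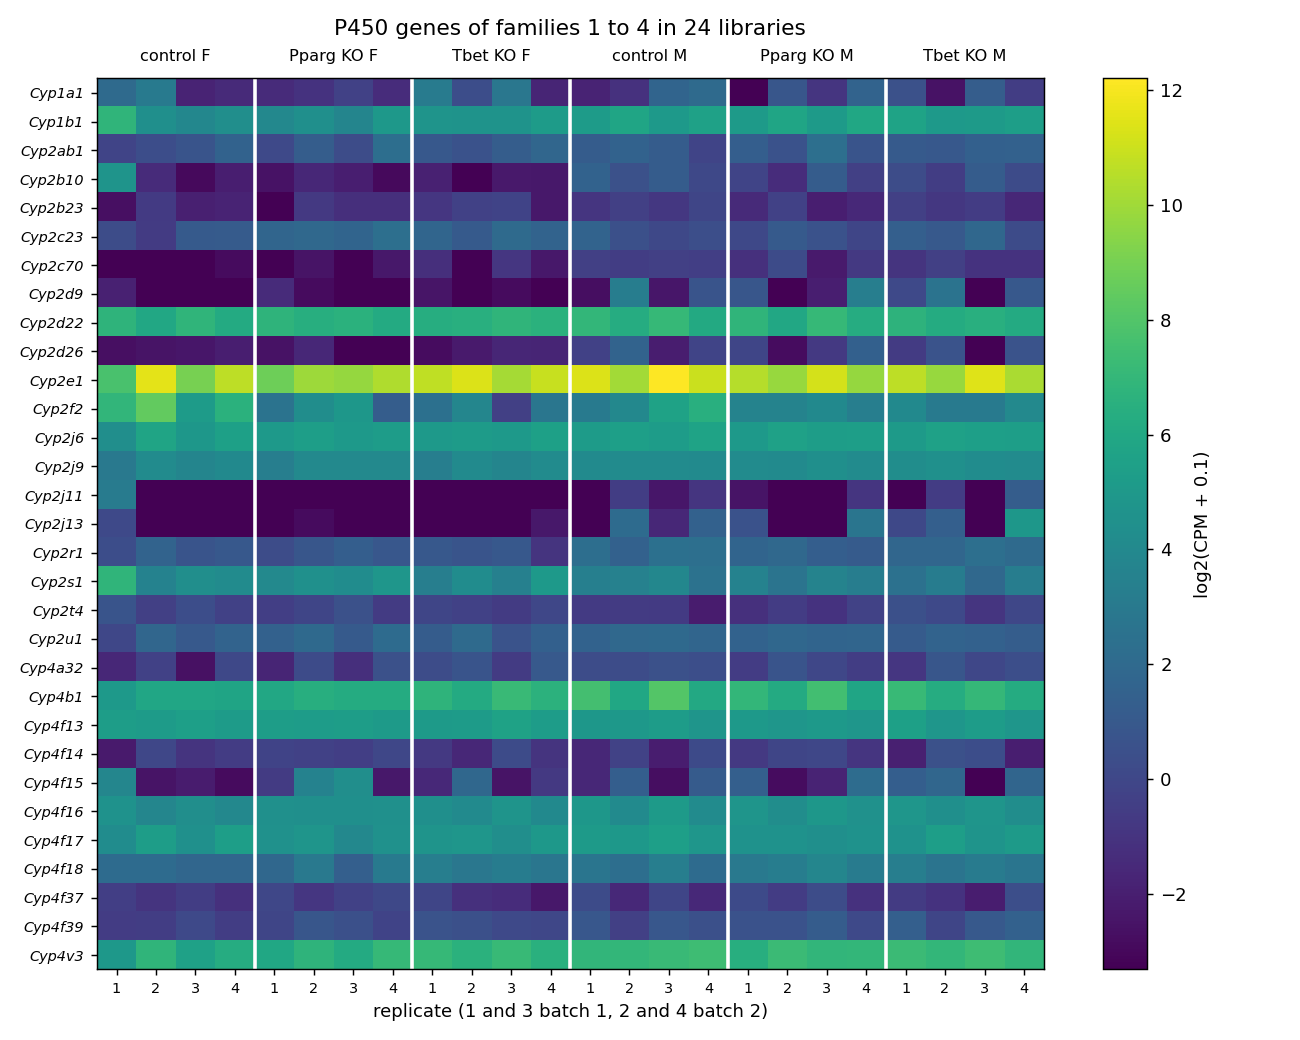
Heat map of log2(CPM + 0.1) for the 31 P450 genes (rows) in 24 libraries (columns, by group and replicate; F female, M male, KO knockout). Cyp2e1 is the brightest row, between 215.2 and 4730 CPM, and Cyp2j11, Cyp2j13 and Cyp2d9 are near 0 in most female libraries.

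Fewer cells of a type and less RNA per cell cannot be told apart in whole tissue, and p-values measure the spread between libraries. Differences were tested with the quasi-likelihood test of edgeR on raw counts, and a gene was called at a Benjamini-Hochberg adjusted p under 0.05 over 17824 genes. Intervals of a fold change are 2 standard errors (SE) on either side.

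In T-bet knockout females, Cyp2f2 fell, and no other P450 gene of these families was called. Cyp2f2 activates naphthalene and other aromatic compounds in the club cells of the airway. Its levels were 119.8, 352.4, 36.7 and 98.5 CPM in control females and 5.24, 14.0, 0.659 and 6.77 CPM in T-bet knockout females. Every knockout library was below every control library. The log2 fold change was -4.58 (SE 0.93, adjusted p = 0.0241). This was 1 of 31 genes called, 0 higher and 1 lower, against a background of 1.22% of all genes tested (0.583% higher and 0.64% lower). The gene lies at chr7:27119955-27133660 (GRCm38.p6), and none of its 50-base words is shared with another annotated gene.

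The size of this fall was similar in the 2 batches, -4.72 in batch 1 alone and -4.45 in batch 2 alone, where the adjusted p was 0.0814 and 0.175. The call was lost without control female replicate 2 (adjusted p = 0.0579) and without T-bet knockout female replicate 1 (0.0984), replicate 3 (0.0911) or replicate 4 (0.0584), with log2 fold changes from -5.13 to -3.83 over all alternatives. Without a batch term the adjusted p was 0.0522. Markers of airway secretory cells were at or near 0: Scgb1a1 lay between 0 and 0.568 CPM and Scgb3a2 between 0 and 0.150 CPM in all 24 libraries. The lung markers Sftpc and Bpifa1 peaked at 3.25 and 0.870 CPM in control female replicate 1. The highest Cyp2f2 level was in control female replicate 2, where both were listed at 0. The cell or tissue source of the Cyp2f2 RNA was not tested.

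In PPAR-gamma knockout females no P450 gene of these families was called. Cyp2f2 had 5.83, 19.2, 29.5 and 2.27 CPM, and these libraries too were all below the 4 control females. Its log2 fold change was -3.25 (SE 0.87, adjusted p = 0.274), with an interval from -4.99 to -1.51. It was -2.13 within batch 1 (adjusted p = 0.496) and -4.40 within batch 2 (adjusted p = 0.129). The called count of 0 of 31 stands against a background of 0.0168% (0.0112% higher and 0.00561% lower), with 8 of 31 genes at an unadjusted p under 0.05 and 11.9% of all genes. DESeq2 called 3 genes, Cyp2f2, Cyp2b10 and Cyp2j11, all lower, against 2.06% of all genes. The direct contrast of T-bet with PPAR-gamma knockout females gave -1.33 for Cyp2f2 (SE 0.86, adjusted p = 1).

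Male Cyp2f2 levels were 8.0, 15.4, 49.1 and 87.5 CPM in controls. They were 12.1, 12.3, 16.5 and 10.01 CPM in PPAR-gamma knockouts and 16.6, 8.10, 8.37 and 15.6 CPM in T-bet knockouts. The 3 male groups overlap. The fold changes were -1.55 (SE 0.82) and -1.65 (SE 0.82) on the log2 scale, each with an adjusted p of 1. The T-bet effect in males minus that in females was 2.93 (SE 1.17, adjusted p = 0.368), so a difference between the sexes was not called.

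**Figure D2:**
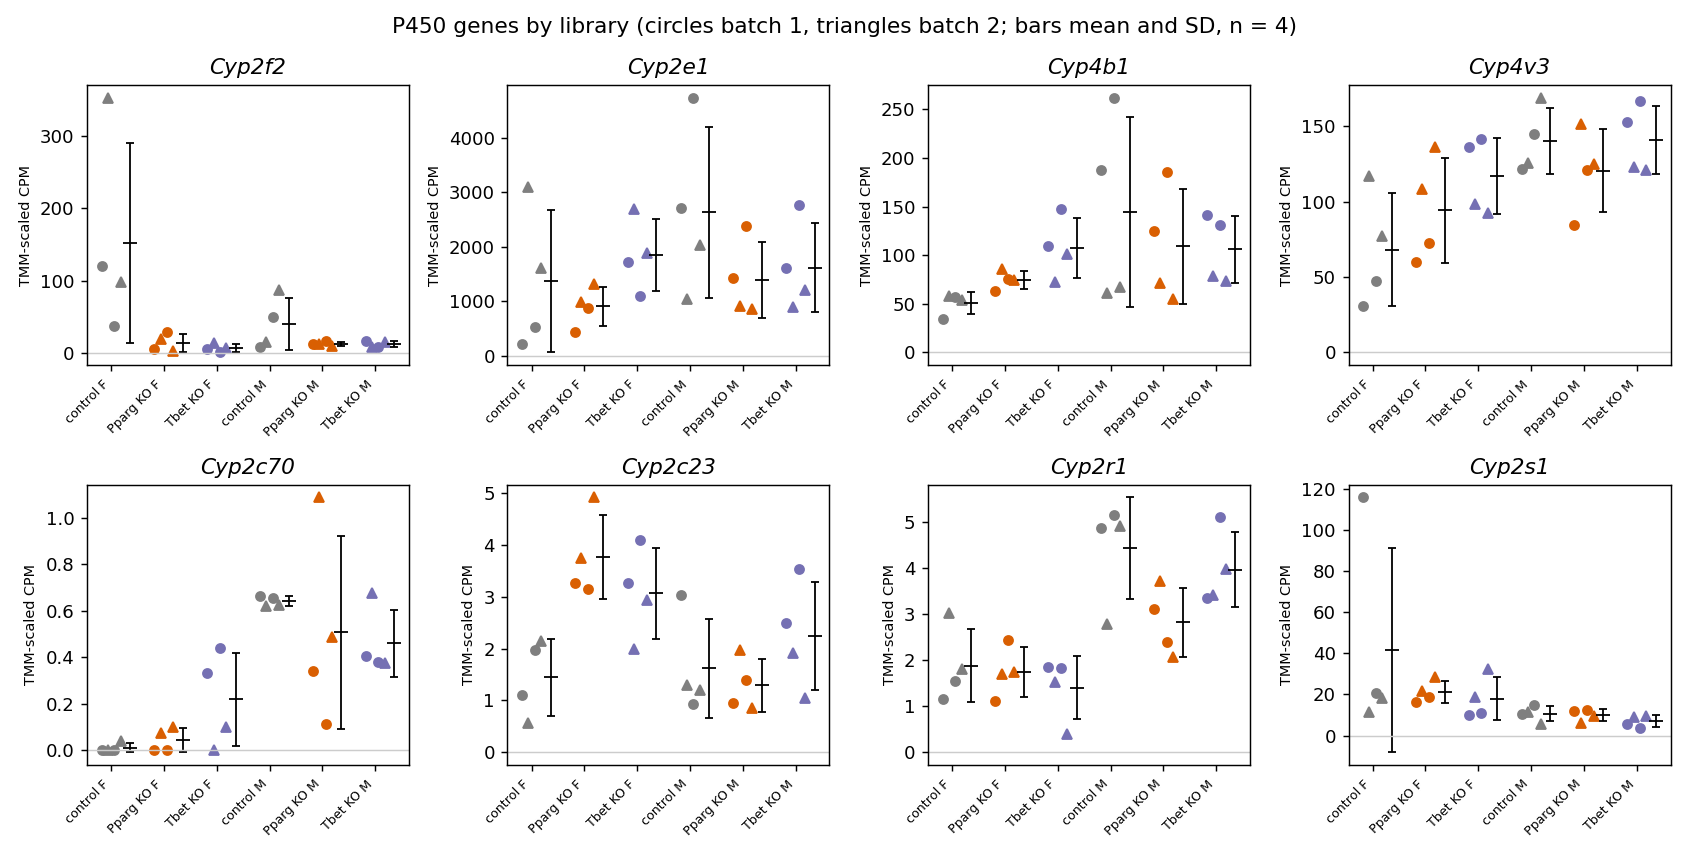
TMM-scaled CPM of 8 P450 genes in each library by group (circles batch 1, triangles batch 2; black bars mean and SD, n = 4). For Cyp2f2 the 4 control females lie between 36.7 and 352.4 CPM, above all 8 knockout females.

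The Ovgp1 marker of the oviduct was called lower in T-bet knockout females (-8.04, SE 1.86, adjusted p = 0.0413), with 4629 CPM in control female replicate 1 and 2.22 to 4.98 CPM in the other 11 female libraries. Without that control library the Cyp2f2 difference was -4.58 (adjusted p = 0.0313). What oviduct RNA adds to the Cyp2f2 levels was not tested.

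Other family 2 genes in females were highest in that single control library. Cyp2b10, a target of the drug sensor CAR, had 26.1 CPM in control female replicate 1 and 0.277, 0.0315 and 0.151 CPM in the other control females. The knockout females had 0 to 0.225 CPM. The log2 fold change was -5.50 (SE 1.46, adjusted p = 0.0720) in T-bet and -4.78 (SE 1.37, adjusted p = 0.298) in PPAR-gamma knockouts. Cyp2j11, an epoxygenase of arachidonic acid by family, had 149 counts in control female replicate 1 and 0 in the other 11 female libraries. Over the groups this is at least 34.5-fold higher in control than in T-bet knockout females and at least 45.7-fold higher than in PPAR-gamma knockout females, taking 3 counts over the group as the floor. It rests on that library alone, 1 of the 5 libraries, all with Foxj1 (described below), through which Cyp2j11 met the count rule. Nothing is read from its size. Such counting limits cover counting error only.

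Cyp2c23, an arachidonic acid epoxygenase, ran the other way in females. Its levels were 1.10, 0.555, 1.98 and 2.14 CPM in controls, 3.26, 3.76, 3.16 and 4.92 CPM in PPAR-gamma knockouts and 3.26, 1.98, 4.10 and 2.93 CPM in T-bet knockouts. The PPAR-gamma knockout and control females do not overlap. The log2 fold changes were 1.41 (SE 0.45, adjusted p = 0.298) and 1.06 (SE 0.44, adjusted p = 0.222). Neither passed the threshold.

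Cyp2c70, which makes muricholic acids from bile acids in mouse liver, was near the limit of detection in females. It had 1 count in all 4 control females, 5 in PPAR-gamma knockout females and 21 in T-bet knockout females. The ratio of T-bet knockout to control was 30.2 with a counting interval from 4.86 to 1250, and the adjusted p was 0.0538. Cyp2c70 had 8 and 12 of those 21 counts in T-bet knockout female replicates 1 and 3, both of batch 1.

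Among family 4 genes, 4 passed the threshold in T-bet knockout females with DESeq2 but not with edgeR. Cyp4b1 had 34.2, 58.2, 57.2 and 54.2 CPM in control females and 109.8, 72.4, 147.5 and 101.6 CPM in T-bet knockout females, which do not overlap. Its log2 fold change was 0.98 (SE 0.34, adjusted p = 0.145). Cyp4f18 had 4.24, 4.28, 3.37 and 3.46 CPM against 9.70, 7.002, 9.08 and 6.87 CPM, also without overlap, and its log2 fold change was 1.08 (SE 0.33, adjusted p = 0.111). Cyp4v3 (0.88, SE 0.30, adjusted p = 0.145) and Cyp4a32 (1.58, SE 0.52, adjusted p = 0.129) overlapped between the groups. DESeq2 called these 4 together with Cyp2f2, Cyp2b10, Cyp2j11 and Cyp2c70, 8 genes in all against 6.93% of all genes, and edgeR had 9 of 31 at an unadjusted p under 0.05 against 17.3% of all genes. In batch 1 alone Cyp4b1 (1.5, adjusted p = 0.0297) and Cyp4v3 (1.82, adjusted p = 0.00806) were called.

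Non-overlap of groups gave 2 genes higher, Cyp4b1 and Cyp4f18, and 1 lower, Cyp2f2, in T-bet knockout females, against 4.97% of all genes in either direction (2.83% higher and 2.14% lower). In PPAR-gamma knockout females it gave Cyp2c23 and Cyp4b1 higher and Cyp2f2 lower, against 2.44% (1.35% higher and 1.09% lower). Both comparisons use the same 4 control libraries. The median log2 fold change of the 31 genes was 0.07 in PPAR-gamma and 0.14 in T-bet knockout females, beside -0.02 and -0.04 over all genes tested.

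Markers of other cell types were read beside these values. The summed level of 10 macrophage markers was 350.5 to 1033 CPM in control females, 680.4 to 2384 CPM in PPAR-gamma and 1157 to 1621 CPM in T-bet knockout females. The summed level of 12 adipocyte markers was 9431 to 44550, 19000 to 33300 and 34500 to 44850 CPM. None of these 22 markers was called in either knockout in females, and their part in the P450 differences was not tested.

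In males the knockouts moved no P450 gene of these families past the threshold. In PPAR-gamma knockout males 0 of 31 genes were called by edgeR (background 0%), 1 had an unadjusted p under 0.05 against 2.55% of all genes, and DESeq2 called 0. That gene was Cyp4f17, a fatty acid hydroxylase by family, with 35.6, 31.2, 43.6 and 29.0 CPM in controls and 23.97, 23.6, 21.2 and 24.2 CPM in knockouts. The groups do not overlap, the sole such gene of the 31 against 1.52% of all genes (0.898% higher and 0.623% lower), and the log2 fold change was -0.61 (SE 0.20, adjusted p = 1).

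In T-bet knockout males 0 of 31 were called by edgeR (background 0.00561%), 1 had an unadjusted p under 0.05 against 4.38% of all genes, and DESeq2 called 0. The gene was Cyp2t4, with 0.521, 0.558, 0.514 and 0.125 CPM in controls and 1.27, 0.995, 0.425 and 0.902 CPM in knockouts, which overlap. Its log2 fold change was 1.08 (SE 0.48, adjusted p = 1), and without the 8 libraries with Foxj1 described below it was -0.28 (adjusted p = 0.980), a value from 1 T-bet knockout male, replicate 3, assumed to vary like the other groups. Groups did not overlap for 1 gene, Cyp2j9, higher in knockouts, against 1.51% of all genes (0.752% higher and 0.763% lower). Cyp2e1 differed by -0.70 (SE 0.63) in T-bet and -0.92 (SE 0.63) in PPAR-gamma knockout males, both with an adjusted p of 1.

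The precision differed greatly between genes. For Cyp2j6, an arachidonic acid epoxygenase, the T-bet minus control interval in females ran from -0.27 to 0.32, and for Cyp4f13 from -0.17 to 0.25 on the log2 scale. For Cyp2e1 it ran from -0.81 to 1.71, and for Cyp1a1, the classic target of the aryl hydrocarbon receptor, from -2.54 to 3.09. Cyp1a1 ranged from 0.189 to 8.48 CPM among the control females alone.

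The 2 knockouts were also compared directly. In females 0 of 31 genes were called by edgeR (background 0%), 2 had an unadjusted p under 0.05 against 4.8% of all genes, and DESeq2 called 0. Groups did not overlap for 0 of the 31, against 1.76% of all genes (0.713% higher and 1.05% lower). The smallest p was that of Cyp2c70 (2.44, SE 0.91, adjusted p = 0.878), and the second was that of Cyp1a1 (3.27, SE 1.46, adjusted p = 1). In males 0 of 31 were called (background 0%), with 0 at an unadjusted p under 0.05 against 4.24% of all genes and 0 by DESeq2. Groups did not overlap for 0 of the 31, against 1.53% of all genes (0.533% higher and 0.999% lower).

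For the difference between a knockout's effect in males and in females, edgeR called 0 of 31 genes for PPAR-gamma (background 0%) and 0 of 31 for T-bet (background 0.00561%). At an unadjusted p under 0.05 there were 2 and 8 genes, against 6.14% and 11.5% of all genes. DESeq2 called 1 gene in each, Cyp2j11, whose female counts all lie in control female replicate 1. The smallest p for T-bet was that of Cyp2c70 (-4.70, SE 1.28, adjusted p = 0.261) and for PPAR-gamma that of Cyp2c23 (-1.69, SE 0.63, adjusted p = 0.805).

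**Figure D3:**
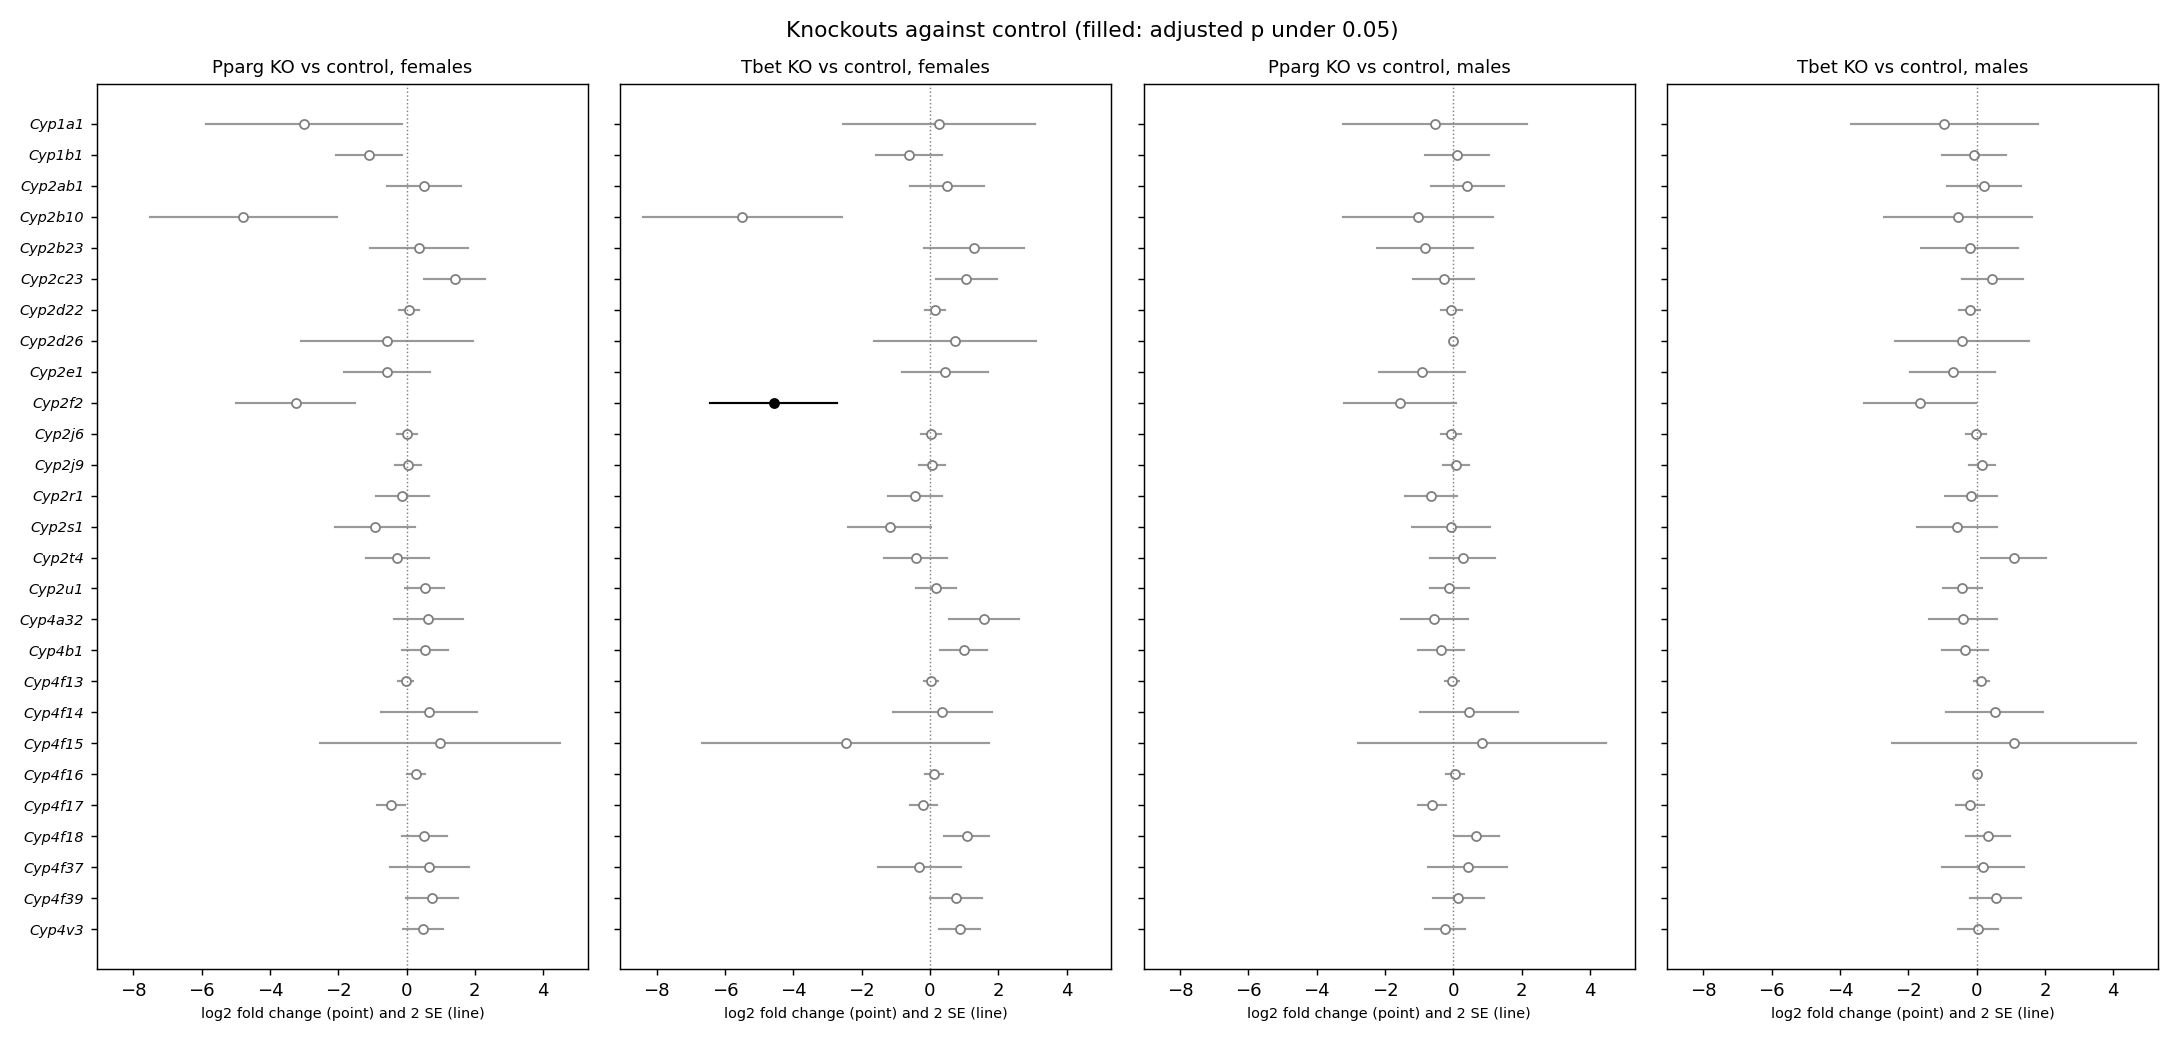
Log2 fold change (point) with 2 SE on either side (line) of 27 P450 genes in each knockout against control of the same sex; 4 genes with 0 to 3 counts in a group are left out, and 2 points with a fold change too near 0 for an SE have no line. The sole filled point, an adjusted p under 0.05, is Cyp2f2 in T-bet knockout females at -4.58.

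More P450 genes were called between the sexes than in the knockouts. In controls 9 of 31 genes were called, 7 higher and 2 lower in males. The share of 29.0% is near the background of 27.2% of all genes tested, 13.6% in each direction. At an unadjusted p under 0.05 there were 15 genes, against 39.5% of all genes. The median log2 difference of the 31 genes, males minus females, was 0.35 against -0.04 over all genes. Groups did not overlap for Cyp2c70, Cyp4a32, Cyp4b1 and Cyp4v3, higher in males, and Cyp2t4, with lower levels in males, against 15.7% of all genes in either direction (7.84% higher and 7.85% lower). DESeq2 called 13 genes, among them all 9, against 33.3% of all genes.

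Cyp2c70 had the largest called difference. It was at 0.663, 0.620, 0.654 and 0.625 CPM in control males, and its counts were 14, 10, 14 and 15. In control females it had 0, 0, 0 and 1 count. The ratio was 64.6 with a counting interval from 11.1 to 2600, and the log2 fold change was 5.44 (SE 1.02, adjusted p = 0.00102). This call was kept in all 16 alternatives tried, from 4.64 to 6.89, within batch 1 (6.89, adjusted p = 0.0121) and within batch 2 (4.64, adjusted p = 0.0397) included. The levels are low, with 53 counts over all 4 control males. Cyp2c70 reached 10 counts in those 4 libraries and 3 others, so it met the count rule only through the group where it is high. Refitting the same counts does not remove this selection. Nothing is read from its sex difference in controls.

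Cyp4b1 and Cyp4v3 were higher in control males as well. Cyp4b1 had 188.2, 61.2, 262.1 and 67.0 CPM in control males, all above the 34.2 to 58.2 CPM of control females, and the log2 fold change was 1.28 (SE 0.34, adjusted p = 0.0108). Within batch 1 the difference was 2.26 (adjusted p = 0.00148) and within batch 2 it was 0.19 (adjusted p = 0.508), and without control male replicate 3 the adjusted p was 0.0533. Cyp4v3 had 121.5, 125.3, 144.9 and 168.8 CPM in control males against 30.9, 116.6, 47.6 and 77.2 CPM in control females (1.10, SE 0.30, adjusted p = 0.0114). Its difference was 1.72 (adjusted p = 0.00158) within batch 1 and 0.60 (adjusted p = 0.117) within batch 2.

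Cyp2r1 makes the circulating form of vitamin D, and it was higher in control males at 4.88, 2.79, 5.14 and 4.92 CPM against 1.16, 3.01, 1.54 and 1.81 CPM in females. The log2 fold change was 1.21 (SE 0.39, adjusted p = 0.0263). The call was lost without control female replicate 1 (adjusted p = 0.0734), 3 (0.0875) or 4 (0.0540) and without control male replicate 1 (0.0594), 3 (0.0665) or 4 (0.0669). The difference was 1.85 (adjusted p = 0.0148) within batch 1 and 0.68 (adjusted p = 0.455) within batch 2.

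Cyp4a32, an omega-hydroxylase of the subfamily induced by PPAR-alpha, was at 1.14, 1.12, 1.36 and 1.21 CPM in control males and 0.232, 0.713, 0.0629 and 0.940 CPM in control females (1.71, SE 0.52, adjusted p = 0.0213). The call was lost without control female replicate 1 (adjusted p = 0.0511) or 3 (0.0721) and without control male replicate 1 (0.0565) or 3 (0.0725), and without a batch term (0.208). Cyp4a32 differed by 3.09 (adjusted p = 0.0231) within batch 1 and 0.49 (adjusted p = 0.562) within batch 2. It shares 43.8% of its 50-base words with other genes, most with Cyp4a10, so its reads are uncertain.

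Cyp4f16 was higher in control males by 0.40 (SE 0.13, adjusted p = 0.0296), with 29.8, 17.2, 34.5 and 17.6 CPM against 24.3, 14.1, 20.3 and 15.4 CPM. The groups overlap, and both batches were higher in males: 0.50 (adjusted p = 0.0299) within batch 1 and 0.24 (adjusted p = 0.241) within batch 2. It shares 17.4% of its words with other genes, most with Cyp4f37, and its call was lost without control female replicate 2, 3 or 4 or control male replicate 1 or 3 (adjusted p from 0.0583 to 0.152), with batch from the source name (0.248) and without a batch term (0.245). Cyp2d26 was higher in control males by 3.25 (SE 1.14, adjusted p = 0.0401), with 0.710, 3.04, 0.140 and 0.792 CPM against 0.0580, 0.0793, 0.0944 and 0.151 CPM. Cyp2d26 reached 10 counts in 9 libraries, all of them male. It met the count rule only through the sex where it is high, and nothing is read from its sex difference. Its call was lost without any control female or without control male replicate 1 or 2 (adjusted p from 0.0670 to 0.110), with the replicate block (3.08, adjusted p = 0.0699), without a count filter (3.24, adjusted p = 0.0543) and without a batch term (3.5, adjusted p = 0.0636), and within the batches the difference was 2.33 (adjusted p = 0.301) and 3.97 (adjusted p = 0.160).

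The genes lower in control males were Cyp2s1 and Cyp4f13. Cyp2s1 had 10.5, 11.3, 14.7 and 5.75 CPM in control males against 115.9, 11.5, 20.7 and 18.2 CPM in control females (-1.96, SE 0.59, adjusted p = 0.0196). Without control female replicate 1 the difference was -0.62 (adjusted p = 0.265), so the called size rests on that library; without control male replicate 1 or 4 the adjusted p was 0.0559 and 0.0538. Cyp2s1 differed by -2.47 (adjusted p = 0.0199) within batch 1, which holds that library, and -0.80 (adjusted p = 0.225) within batch 2.

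Cyp4f13 was lower by 0.30 on the log2 scale (log2 fold change -0.30, SE 0.11, adjusted p = 0.0407), with means of 31.6 ± 5.10 CPM in males and 38.9 ± 3.30 CPM in females (SD, n = 4). Its call was lost without control female replicate 2, 3 or 4 or control male replicate 1 or 4 (adjusted p from 0.0722 to 0.148), without a count filter (0.068) and without a batch term (0.201). The differences within batches were -0.31 (adjusted p = 0.197) and -0.33 (adjusted p = 0.0695). This is a change of small size in a gene with little spread.

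Without the 8 libraries that hold transcripts of ciliated epithelium, described below, 6 genes were called in controls, against 25% of all genes in that fit. Cyp2c70, Cyp4a32, Cyp4b1 and Cyp4f16 were called in both fits, and Cyp1b1 (1.28, adjusted p = 0.00293) and Cyp2b10 (3.66, adjusted p = 0.0407) were added. The control males left in that fit are replicates 1 and 3, both of batch 1. In batch 1 alone the sex difference was 3.09 for Cyp4a32 and 2.26 for Cyp4b1, against 0.49 and 0.19 in batch 2 alone. For the genes called in both fits, leaving out these libraries and leaving out batch 2 control males therefore cannot be told apart. The added genes were also called without control female replicate 1 alone, with batch 2 males kept. Cyp1b1 then differed by 1.28 (adjusted p = 0.000553) and Cyp2b10 by 3.2 (adjusted p = 0.0084). Without the 8 libraries the difference was -0.26 for Cyp2s1 (adjusted p = 0.723), 1.93 for Cyp2d26 (adjusted p = 0.370), 1.19 for Cyp2r1 (adjusted p = 0.146), 1.0 for Cyp4v3 (adjusted p = 0.0773) and -0.28 for Cyp4f13 (adjusted p = 0.172).

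In PPAR-gamma knockouts 2 of 31 genes differed between the sexes (background 8.77%, with 3.59% higher and 5.18% lower), and 8 had an unadjusted p under 0.05 against 26.5% of all genes. Cyp2c70 was higher in males, with 0.340, 1.09, 0.114 and 0.485 CPM against 0, 0.0751, 0 and 0.0971 CPM in females (3.23, adjusted p = 0.0262). Cyp2c23 was lower in males, with 0.945, 1.97, 1.40 and 0.849 CPM against 3.16 to 4.92 CPM in females (-1.55, SE 0.45, adjusted p = 0.0362). Neither gene overlaps between the sexes; in all, 4 genes higher and 3 lower did not, against 9.06% of all genes (3.97% higher and 5.09% lower). Within batch 1 and batch 2 the differences were 5.39 (adjusted p = 0.0713) and 3.11 (adjusted p = 0.162) for Cyp2c70, and -1.48 (adjusted p = 0.138) and -1.61 (adjusted p = 0.266) for Cyp2c23.

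For Cyp2c70 in PPAR-gamma knockouts the call was lost without PPAR-gamma knockout female replicate 1 (adjusted p = 0.0866), 2 (0.0575) or 3 (0.0765) and without PPAR-gamma knockout male replicate 1 (0.0651) or 2 (0.0872). For Cyp2c23 it was lost without female replicate 1 (adjusted p = 0.0603), 2 (0.0729) or 4 (0.0822) and without male replicate 1 (0.132), 3 (0.0938) or 4 (0.0822) of the same genotype, and with the replicate block (0.0573). Without a batch term the adjusted p was 0.0527 for Cyp2c70 and 0.0781 for Cyp2c23.

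In T-bet knockouts 1 of 31 genes was called (background 9.31%, with 3.93% higher and 5.38% lower), and 6 had an unadjusted p under 0.05 against 25.9% of all genes. It was Cyp2r1, with 3.35, 3.41, 5.11 and 3.98 CPM in males and 1.86, 1.52, 1.83 and 0.404 CPM in females. The groups do not overlap, as for 3 genes higher and 1 lower in males against 12.4% of all genes (5.66% higher and 6.78% lower), and the log2 fold change was 1.49 (SE 0.39, adjusted p = 0.0226). Leaving out T-bet knockout female replicate 2 (adjusted p = 0.0535) or 4 (0.0583) or T-bet knockout male replicate 3 (0.0761) lost the call. The difference was 1.16 (adjusted p = 0.200) within batch 1 and 1.97 (adjusted p = 0.0914) within batch 2.

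The number of sex calls was 9, 2 and 1 in controls, PPAR-gamma and T-bet knockouts. The share of all genes called was 27.2%, 8.77% and 9.31% in the same order, so it too was lower in both knockouts. No P450 gene of these families was called for a sex difference that itself differed between genotypes. For Cyp2r1, males minus females on the log2 scale was 1.21, 0.69 and 1.49 in the same order. For Cyp4b1 it was 1.28, 0.38 and -0.05, and for Cyp4v3 it was 1.10, 0.38 and 0.26. The T-bet effect in males minus that in females, the test of the last change for Cyp4b1, was -1.33 (SE 0.48, adjusted p = 0.354), and in batch 1 alone it was -2.21 (adjusted p = 0.0482).

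Other cell types differed with sex in controls. Of the markers, 7 of 10 for macrophages and 6 of 8 for endothelium were higher in control males, as were 3 of 12 for adipocytes. For stromal progenitors 6 of 12 were lower and 1 higher. These counts stand beside 13.6% of all genes in each direction. Of 7 markers tested for the female reproductive tract 1 was higher and 4 lower, and of 7 steroidogenic markers 4 were higher and 2 lower. Mesothelium gave 2 lower of 8, lymphocytes 1 lower of 10 and kidney 1 higher of 4. Summed macrophage markers were 350.5 to 1033 CPM in control females and 1265 to 1790 CPM in control males. Summed endothelial markers were 439.1 to 1208 and 1411 to 2346 CPM. Their part in the P450 differences was not tested.

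**Figure D4:**
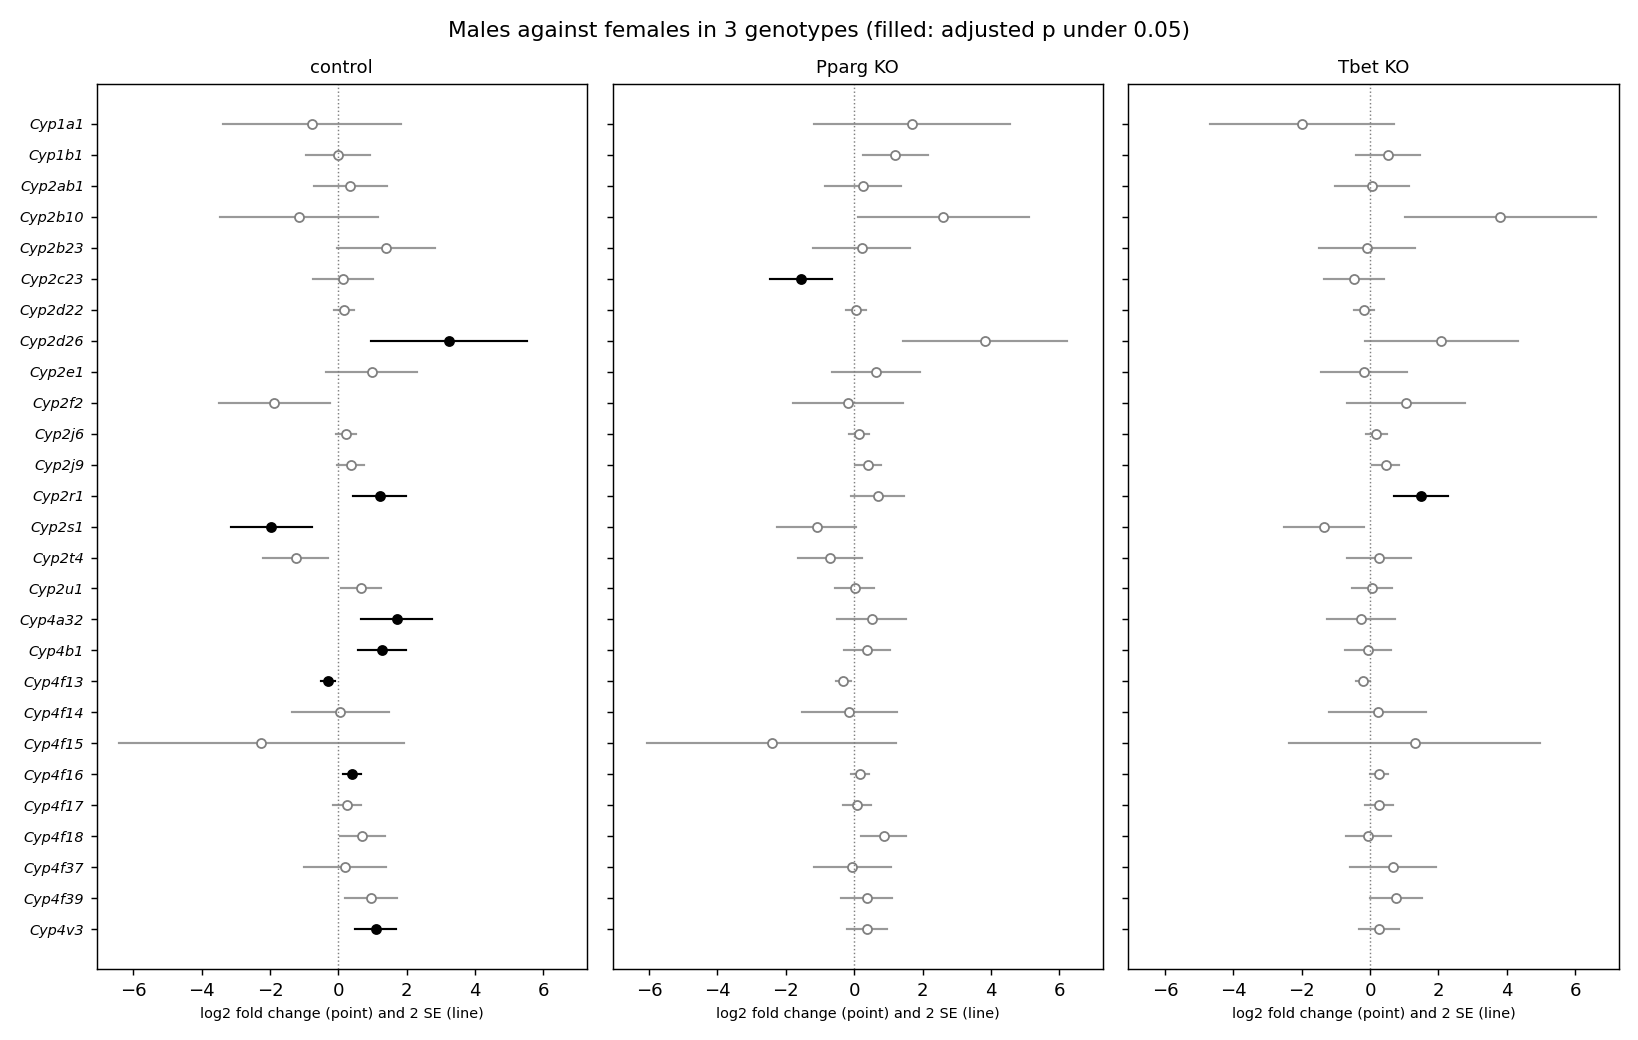
Log2 fold change of males against females (point) with 2 SE on either side (line) for 27 P450 genes in controls, PPAR-gamma knockouts and T-bet knockouts; filled points have an adjusted p under 0.05, and 4 genes with 0 to 3 counts in a group are left out. Cyp4b1 is at 1.28 in controls and -0.05 in T-bet knockouts.

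Cyp2d9, Cyp2j11 and Cyp2j13 met the count rule only through libraries with transcripts of ciliated epithelium, so their levels there are given as a description. Foxj1, the master regulator of motile cilia, was at 18.0 to 376.4 CPM in 8 libraries and at most 1.05 CPM in the other 16. The 8 are control female replicate 1, control male replicates 2 and 4, PPAR-gamma knockout male replicates 1 and 4, and T-bet knockout male replicates 1, 2 and 4. This split was chosen after the values were seen.

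Cyp2d9, known as a testosterone hydroxylase of male mouse liver, had 0.965 to 10.01 CPM in the 7 males with Foxj1 and 0 to 0.152 CPM in the 5 other males. Cyp2j13, an epoxygenase by family, had 0.914 to 30.0 CPM against 0 to 0.234 CPM in the same sets. Cyp4f15, a fatty acid hydroxylase by family, had 2.13 to 4.37 CPM against 0 to 0.237 CPM. These 3 genes do not overlap between the sets of males, and 0 of the 31 were lower without overlap, against 4.21% of all genes higher and 0.325% lower. Cyp2d9, Cyp2j11 and Cyp2j13 reached 10 counts only in libraries with Foxj1. Cyp4f15 and Cyp2d26 did so also in 3 and 2 of the other libraries. All of these genes met the count rule through the libraries where they are high, and nothing is read from their separation. Cyp2d9 shares 21.8% of its 50-base words with other genes, most with Cyp2d12, and Cyp2d26 shares 9.49%, most with Cyp2d22. Cyp2d26 overlaps, with 0.559 to 3.04 CPM against 0 to 0.710 CPM. The summed level of 10 liver markers was 12.4 to 38.1 CPM over all 24 libraries, and Apoa1 stayed at or below 0.496 CPM.

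The highest of these levels were in single libraries. T-bet knockout male replicate 4 had 30.0 CPM of Cyp2j13, together with 3008 CPM of Crisp1 and 982.3 CPM of Spink8, which are genes of the epididymis. Control female replicate 1 had 4629 CPM of Ovgp1 and 907.8 CPM of Ltf, genes of the oviduct and uterus, and only 9431 CPM of summed adipocyte markers, the lowest of 24 libraries. In that library Cyp1b1 was at 112.9 CPM, Cyp2s1 at 115.9 CPM, Cyp2b10 at 26.1 CPM, Cyp4f15 at 13.7 CPM and Cyp2j11 at 8.64 CPM. Its Cyp2e1 level of 215.2 CPM was the lowest of all libraries.

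Cyp4f15 was also high in females without Foxj1. It was at 11.9 and 20.04 CPM in PPAR-gamma knockout female replicates 2 and 3 and at 3.50 CPM in T-bet knockout female replicate 2. These 3 libraries had 69.3, 116.1 and 20.4 CPM of Krt5, a keratin of basal epithelium, which was at most 0.404 CPM in the other 8 female libraries apart from control female replicate 1, at 18.5 CPM. What such epithelial RNA adds to each P450 level was not tested.

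**Figure D5:**
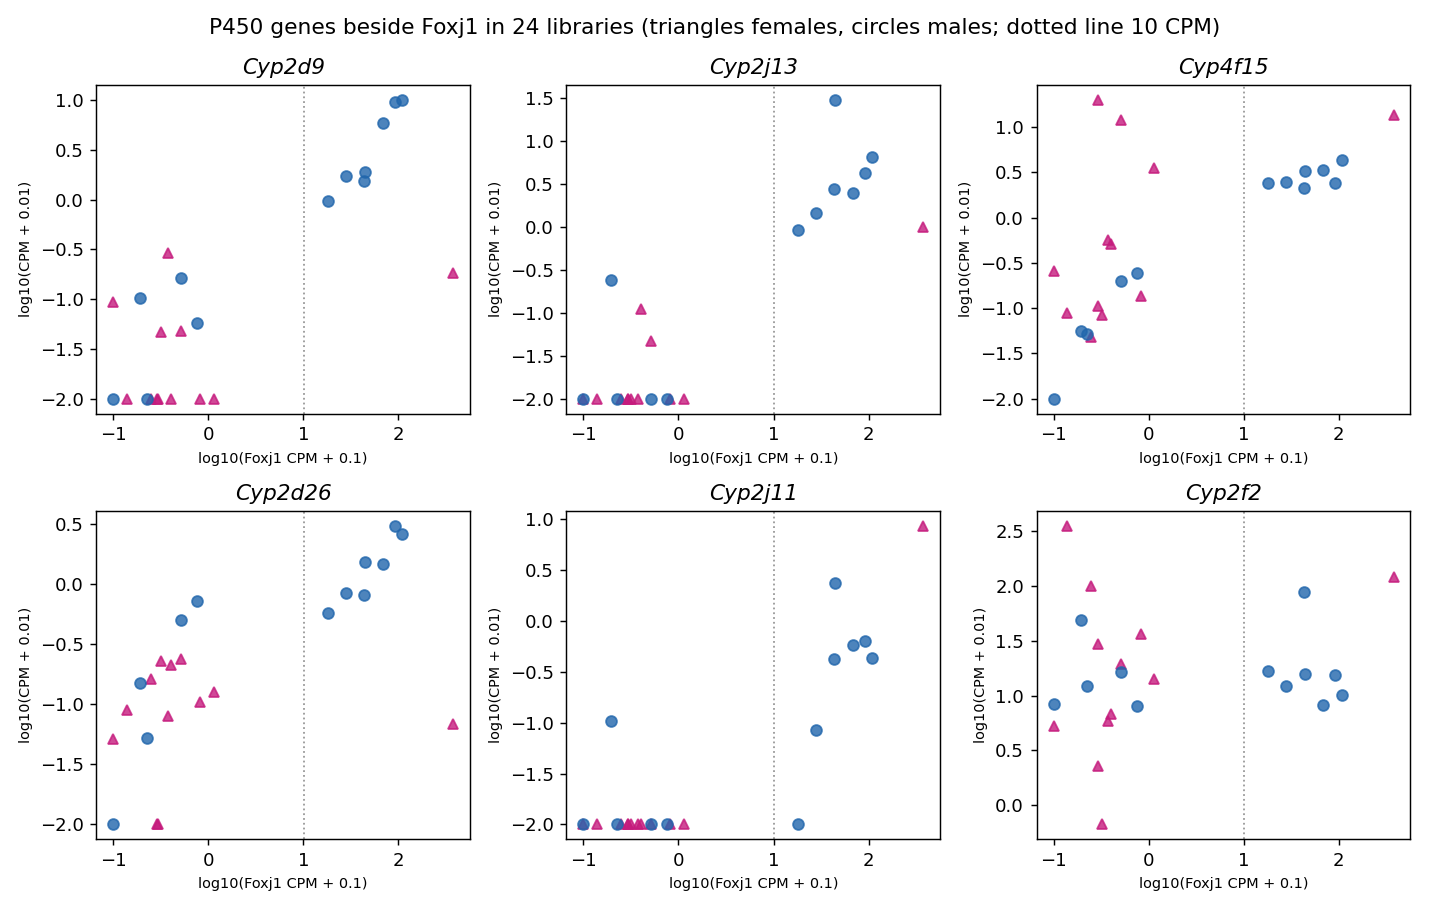
Each of 24 libraries by log10(Foxj1 CPM + 0.1) and log10(CPM + 0.01) of 6 P450 genes (triangles females, circles males; dotted line at 10 CPM of Foxj1). For Cyp2d9, Cyp2j13 and Cyp4f15 the 7 males right of the line lie above the 5 males left of it, while Cyp2f2 overlaps.

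Cyp2e1 varied widely without a called difference in the fits of all 24 libraries. In batch 1 alone it was called higher in control males than in control females (3.28, adjusted p = 0.00462). The means in batch 1 were 3716 CPM in control males and 372.8 CPM in control females. In batch 2 the direction was the other way, with 1540 and 2356 CPM. Each of these means is from 2 libraries. Its levels were 215.2, 3096, 530.4 and 1615 CPM in control females, 447.1, 987.7, 872.2 and 1321 CPM in PPAR-gamma and 1723, 2684, 1090 and 1894 CPM in T-bet knockout females. Male levels were 2701, 1042, 4730 and 2037 CPM in controls, 1435, 908.5, 2371 and 854.4 CPM in PPAR-gamma and 1619, 892.3, 2760 and 1206 CPM in T-bet knockouts. The summed adipocyte markers were lowest, at 9431 CPM, in the control female with the lowest Cyp2e1 and highest, at 61140 CPM, in the control male with the highest. Only these extremes of the 24 libraries were read, and a relation of Cyp2e1 to the markers was not tested. The order of group means in log2 FPKM was T-bet knockout females (10.2 ± 0.582), control males (10.1 ± 0.660), T-bet knockout males (9.72 ± 0.591), PPAR-gamma knockout males (9.48 ± 0.710), control females (9.05 ± 1.48) and PPAR-gamma knockout females (8.94 ± 0.544; SD, n = 4). Neighbours in this order differ by less than their SD.

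Some genes differed by batch within males. Cyp2d22 was at 90.5 to 137.8 CPM in the 6 batch 1 males and 64.5 to 79.0 CPM in the 6 of batch 2. Cyp4b1 was at 125.3 to 262.1 CPM against 55.0 to 78.8 CPM, and Cyp4f16 at 27.2 to 34.5 CPM against 17.2 to 22.6 CPM. These 3 of 31 genes do not overlap between the batches in males, against 31.6% of all genes in either direction. In females only Cyp2j6 did not overlap, with 20.6 to 33.9 CPM in batch 1 and 36.2 to 53.9 CPM in batch 2, against 22.8% of all genes. Of the 6 batch 2 males 5 are among the libraries with Foxj1, beside 2 of the 6 batch 1 males. Between males with and without Foxj1 these 3 genes overlap, with Cyp4b1 at 55.0 to 140.9 CPM against 71.3 to 262.1 CPM.

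In family 1, Cyp1b1 had 112.9, 21.3, 14.5 and 19.97 CPM in control females, 15.3, 20.9, 13.5 and 30.8 CPM in PPAR-gamma and 26.5, 24.6, 25.1 and 36.1 CPM in T-bet knockout females. The 12 males lay between 32.9 and 59.6 CPM, above all females other than control female replicate 1 and T-bet knockout female replicate 4. The sex difference was 0.00 in controls (adjusted p = 0.997), 1.2 in PPAR-gamma knockouts (SE 0.47, adjusted p = 0.114) and 0.53 in T-bet knockouts (adjusted p = 0.504). Without control female replicate 1 alone it was 1.28 in controls (adjusted p = 0.000553), so that library decides the call. Without the 8 libraries with Foxj1 it was 1.28 in controls (adjusted p = 0.00293) and 1.2 in PPAR-gamma knockouts (adjusted p = 0.00974). Cyp1a1 had at most 8.59 CPM and was not called in any comparison.

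The other genes of the pathway were read from 10 lists. Among 8 electron donors of P450 enzymes, which include the oxidoreductase gene Por, 0 were called in any of the 11 comparisons. In T-bet knockout females the calls were Cpt1a higher (0.74, SE 0.14, adjusted p = 0.0146), which admits fatty acids to mitochondria, Aldh1a3 higher (1.12, SE 0.25, adjusted p = 0.0363), which makes retinoic acid, and Cyp51 lower (-1.46, SE 0.33, adjusted p = 0.0383), a P450 of cholesterol synthesis. No list member was called in PPAR-gamma knockouts of either sex or in T-bet knockout males.

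List genes called between the sexes in controls are read beside the 27.2% of all genes called, 13.6% in each direction, and several lists lie at or below that share. Of 12 heme genes, 4 were higher and 2 lower in males, with Alas1, the first enzyme of heme synthesis, higher by 1.36 (SE 0.20, adjusted p = 0.000190), Hmox1, which breaks heme down, by 2.30 (SE 0.36, adjusted p = 0.000283), and Ppox lower (-0.57, SE 0.10, adjusted p = 0.000696). Of 10 genes of the aryl hydrocarbon receptor path 0 were higher and 2 lower (Hsp90ab1 and Ptges3). Of 14 nuclear receptors tested 2 were higher, Rxra (0.59) and Nr1h3 (0.88), and Esr1 was lower (-2.02). Of 13 PPAR-alpha targets 2 were higher, Angptl4 (2.58) and Cpt1a (1.16).

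Of 17 eicosanoid genes 5 were higher and 3 lower in control males, with Alox5 (1.41, adjusted p = 0.00428) and Ltc4s (1.17, adjusted p = 0.00806) of leukotriene synthesis higher and the prostacyclin synthase Ptgis lower (-1.29, adjusted p = 0.00564). Retinoid genes gave 3 higher and 3 lower of 15, with Aldh1a3 (1.90, SE 0.25, adjusted p = 6.61e-05) and Aldh1a1 (1.38, adjusted p = 0.00215) higher. Other phase I enzymes gave 4 and 4 of 22, with Ces2g (-1.31, SE 0.18, adjusted p = 0.000101) and Akr1c14 (-4.05, SE 0.58, adjusted p = 0.000137) lower and Aox1, an aldehyde oxidase, higher (1.48, SE 0.28, adjusted p = 0.00102). Conjugating enzymes gave Mgst3 higher (1.48) and Gsta4 lower (-1.68) of 22. P450 families 5 and above gave 2 and 2 of 12, with the oxysterol hydroxylase Cyp7b1 lower (-2.42, SE 0.40, adjusted p = 0.000400) and the steroid hydroxylases Cyp21a1 (1.76) and Cyp17a1 (5.44) higher.

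The genes whose pattern was most like that of the most often called P450 genes were found by Spearman correlation of log2 CPM over 24 libraries with batch means subtracted. For Cyp2c70 they were Nek6 (0.899), Mfge8 (0.896), Pcbd1 (0.896), Gm4952 (0.889) and Cela1 (0.889). For Cyp2r1 they were Zfp91 (0.932), Rnf11 (0.922), Aldh3b2 (0.910), 1110008P14Rik (0.909) and Apoc1 (0.902). The libraries share sex and genotype, and the values are a description.

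The remaining subfamily leaders showed little spread between groups. Cyp2j6 had group means from 36.5 to 42.7 CPM, Cyp2d22 from 86.2 to 102.2 CPM and Cyp2u1, an omega-hydroxylase of arachidonic acid, from 2.29 to 3.41 CPM. Cyp2ab1 had group means from 1.58 to 2.59 CPM. Cyp2j9 was higher in every male than in any female of the same genotype in both knockouts, with differences of 0.40 (SE 0.19, adjusted p = 0.190) and 0.46 (SE 0.19, adjusted p = 0.144) that did not pass the threshold. In all, 21 of 31 genes were never called in the 3 comparisons of sexes, and 30 of 31 were never called in the 4 comparisons of a knockout with control.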

How the data were processed

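The authors deposited raw counts per gene and, per library, log2 FPKM. Per the submitters' processing notes, featureCounts and limma were used with GRCm38 and mm10; for the aligner and for versions, the entry is: not given in the sources used here. Counts were tested as deposited with edgeR 4.0.16 in R 4.3.3 (filterByExpr, TMM, robust quasi-likelihood test, 6 groups plus batch, 17 residual degrees of freedom, 17824 genes). CPM are TMM-scaled. The 1029 rows with a gene identifier but no symbol stayed in the fit. Differences of log2 FPKM were not tested. The model was checked on simulated data. Alternatives were DESeq2 1.42.0, no count filter, other batch terms, each batch alone, a replicate block and each library left out. Leaving out 8 libraries with Foxj1 was chosen after seeing the data.

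The members and lists were chosen with earlier results of these data known. Genes named are those called in any of 11 comparisons, the most abundant gene of each subfamily, the smallest p of each comparison, and up to 3 called genes per pathway list. 1 gene of the retinoid list that this rule names is not reported here. Intervals of count ratios are exact at 95%. Promoters came from RefSeq on GRCm38.p6, and shared 50-base words from annotated transcripts. No pair of libraries of the same group agreed within sampling noise, and pairs across groups were not checked.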

Additional observations from a re-analysis of the deposited data

Results flagged for a closer look

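Of 171 groups of 4 libraries examined, 11 held a library far from the other 3 by Dixon's ratio, and chance marks about 1 in 20 groups. Control female replicate 1 stood apart for Cyp2j11 at 8.64 CPM (others all at 0), Cyp2j13 at 0.986 CPM (others all at 0), Cyp4b1 at 34.2 CPM (others from 54.2 to 58.1 CPM), Cyp4f15 at 13.7 CPM (others from 0.0376 to 0.126 CPM). Cyp2c70 was at 0.675 CPM in T-bet knockout male replicate 2, with the others from 0.376 to 0.406 CPM. Cyp2j9 was at 9.72 CPM in PPAR-gamma knockout female replicate 1, with the others from 15.6 to 15.8 CPM. Cyp2r1 was at 2.79 CPM in control male replicate 2, with the others from 4.88 to 5.14 CPM. Cyp2r1 was at 0.404 CPM in T-bet knockout female replicate 4, with the others from 1.52 to 1.86 CPM. Cyp2t4 was at 0.125 CPM in control male replicate 4, with the others from 0.514 to 0.558 CPM. Cyp4f15 was at 0 CPM in T-bet knockout male replicate 3, with the others from 2.39 to 3.34 CPM. Cyp4f39 was at 0.975 CPM in control female replicate 3, with the others from 0.58 to 0.602 CPM.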

How the results depend on the processing

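Shares of all genes called in the same fit are given in brackets, except for fits that leave out libraries. With DESeq2 the number of P450 genes called was 3 in PPAR-gamma (2.06%) and 8 in T-bet knockout females (6.93%). Between the sexes it was 5 in PPAR-gamma (15.7%) and 3 in T-bet knockouts (15.3%). For the difference of effects it was 1 for PPAR-gamma (0.342%) and 1 for T-bet (1.32%). Without a batch term it was 0 in T-bet knockout females (0.157%), 5 between the sexes in controls (13.4%) and 0 in PPAR-gamma knockouts (2.84%). In batch 1 alone it was 2 in T-bet knockout females (3.46%), 0 between the sexes in T-bet knockouts (2.42%) and 1 for the difference of T-bet effects (1.02%). In batch 2 alone it was 0 in T-bet knockout females (0.664%), and 2 and 0 between the sexes in controls (7.29%) and PPAR-gamma knockouts (0.296%). Without the 8 libraries with Foxj1 it was 0 in T-bet knockout females and 1 between the sexes in PPAR-gamma knockouts. With no share beside them and fewer libraries, these counts are not read as a loss of calls. T-bet knockout males are then 1 library, so no count is given for them. With batch from the source name it was 2 between the sexes in T-bet knockouts (7.35%). With the replicate block it was 1 between the sexes in PPAR-gamma knockouts (7.1%), where Cyp2c23 lost its call. It was 8 in controls (25.3%), where Cyp2d26 lost its call. Libraries with the same number had a median correlation of deviations of 0.219, beside 0.232 for the same batch with another number. The numbers share batch and are not read as pairs. Leaving out each library gave 3 to 9 genes between the sexes in controls, 0 to 2 in PPAR-gamma and 0 to 1 in T-bet knockouts, 0 to 2 in T-bet knockout females and 0 in the others. The shares of all genes in those fits are not given. The difference reversed for Cyp2c70 between the knockouts in females in batch 2 alone (-0.638) and for Cyp2t4 in T-bet knockout males without the 8 libraries (-0.278, from that 1 library). Of 334 values of 20 named results, 244 kept direction and side of the threshold, 87 kept direction only, 1 newly passed and 2 reversed. The cause was not tested. Depth limits Cyp2c70, Cyp2d9, Cyp2j11 and Cyp2j13 most.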
